A study of Mus musculus with 9 samples.

Results

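Carriers of organic anions and pumps that expel drugs, encoded by 9 genes, were followed in ribosome-bound RNA of mouse astrocytes. They were taken by name as Slc22a6, Slc22a8, Slco1a4, Slco2b1, Abcb1a, Abcb1b, Abcc1, Abcc4 and Abcg2, and make 9 of the 22092 genes with an entry in the count tables and 9 of the 14427 genes that were deep enough to be tested. Each gene was represented by its Ensembl transcript with the highest CPM (counts scaled to a library of 1000000) summed over all libraries. All mice were 2 months old and carried the tg:Aldh1L1-L10aGFP transgene of the strain Aldh1L1 JD130, in which an Aldh1l1 promoter drives a GFP-tagged L10a ribosomal protein in astrocytes. In translating ribosome affinity purification (TRAP), tagged ribosomes are pulled down with an antibody against GFP and the mRNAs bound to them are sequenced. The 3 whole astrocyte TRAP libraries each came from 1 brain, from which the choroid plexus had been removed. The 6 endfeet TRAP libraries each came from purified brain vessels pooled from 8 mice, to which the membranes of astrocyte endfeet stay attached by the study's account, while the cell bodies are lost. Both groups carried the same transgene, and no library without the tag or without the pulldown was analysed here.

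The transporters of the solute carrier families SLC22 and SLCO exchange organic anions, such as conjugated hormones, bile acids, prostaglandins, neurotransmitter metabolites and many drugs, across the plasma membrane. The ATP-binding cassette (ABC) transporters of the families ABCB, ABCC and ABCG use ATP to expel drugs, conjugates and signalling nucleotides from the cell. In the brain both kinds are best known from the endothelium of the blood-brain barrier, and some of them also from the choroid plexus and the leptomeninges, where together they limit the entry of drugs and clear organic anions from the brain.

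The libraries held 35984144 to 43521208 counts over genes in whole astrocyte TRAP against 2319495 to 13450588 in endfeet TRAP, so that 3 counts stood for at most 0.0834 CPM in the former and 1.29 CPM in the latter. Endfeet library 6 was the shallowest. By the numbers that the deposited tables carry, endfeet libraries 1, 2 and 3 form a series apart from all other libraries, and what these numbers stand for is not stated. The common dispersion of the counts was 0.0141 in whole astrocyte TRAP against 0.725 in endfeet TRAP. Markers of other cells of the vessel preparation stood high in endfeet TRAP. Of the genes tested, 11 of 12 endothelial markers, 10 of 10 mural cell markers, 10 of 10 fibroblast markers, 9 of 10 choroid plexus markers, 6 of 8 ependymal markers and 7 of 10 markers of microglia and macrophages were higher in endfeet TRAP, with median log2 fold changes of 8.55, 6.57, 4.52, 5.27, 4.14 and 3.43. Over all genes tested, 20.7% were higher and 13.9% lower. Markers such as Cldn5, Pecam1, Tek, Emcn, Ly6c1, Kcnj8, Higd1b, Tmem212, Cdhr3 and Hydin were deep enough to be tested only through endfeet libraries. Such markers could hardly come out lower, so these numbers depend in part on the filter. Of 12 astrocyte markers 1, Aqp4, was higher and 5 were lower, with a median log2 fold change of -0.69. Of 8 neuronal and 8 oligodendrocyte markers, 3 and 1 were lower. Fewer cells of a type and less RNA per cell cannot be told apart in such pooled material.

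All 9 transporters were higher in endfeet TRAP than in whole astrocyte TRAP (edgeR quasi-likelihood test, Benjamini-Hochberg adjusted p at most 0.05), against 20.7% of all genes tested that were higher and 13.9% that were lower. None of the 9 was lower, also at an unadjusted p under 0.05, with DESeq2 or with limma voom. In all 9 every endfeet library lay above every whole astrocyte library, a pattern held by 18.9% of the genes tested. Their median log2 fold change was 4.86, with a range from 3.61 for Abcc1 to 9.99 for Slco1a4, where the median of all genes tested was 0.10. Abcb1a, Slco1a4 and Abcb1b were deep enough to be tested only through the endfeet libraries, so their calls depend in part on the filter. With at least 10 counts required in every library, all 9 were kept and were higher, with log2 fold changes from 3.45 to 9.85. The summed CPM of the 9 was 50.8 ± 9.41 (SD, n = 3) in whole astrocyte TRAP against 2486 ± 399.5 (SD, n = 6) in endfeet TRAP. When the comparison was restricted to the 6 libraries of the shared number series, all 9 were again higher, with log2 fold changes from 2.99 to 10.18.

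**Figure D1:**
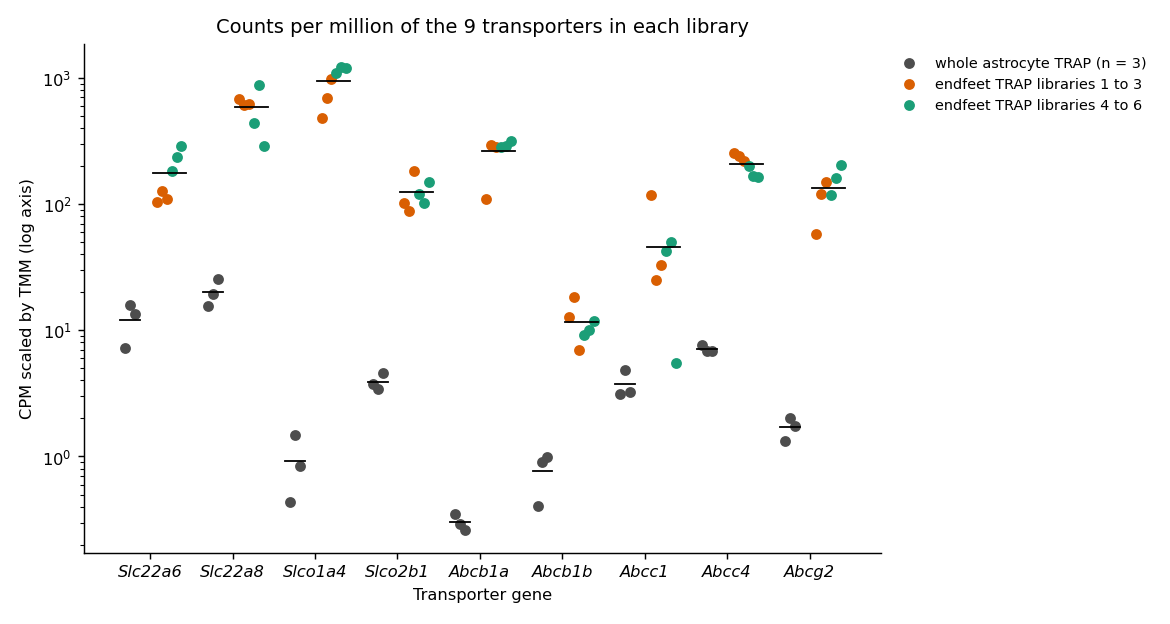
CPM scaled by TMM of the 9 transporters on a log axis, with 1 point per library and a line at the mean of each group. The 6 endfeet TRAP points of each gene lie above its 3 whole astrocyte TRAP points, widely for Slco1a4 and Abcb1a and narrowly for Abcc1, whose lowest endfeet library (5.48 CPM) stands close to the highest whole astrocyte library (4.87 CPM).

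Slc22a6 and Slc22a8 encode OAT1 and OAT3, which take up organic anions in exchange for dicarboxylates and are the main basolateral anion carriers of the kidney tubule. The genes lie side by side on chromosome 19 of mm10, on the plus strand, Slc22a8 (ENSMUST00000010251) at chr19:8591254-8611835 and Slc22a6 (ENSMUST00000010250) at chr19:8618039-8628299, with 6203 bases and no annotated gene between them. Slc22a8 had 15.7, 19.3 and 25.6 CPM in whole astrocyte libraries 1, 2 and 3, and a lowest value of 286 CPM, a median of 617 and a highest of 875 in endfeet TRAP. The groups did not overlap, and endfeet library 6 was the lowest and library 5 the highest. The log2 fold change of Slc22a8 was 4.86 with a standard error (SE) of 0.425 (adjusted p = 2.88e-06). Slc22a6 had 7.30, 15.8 and 13.4 CPM in whole astrocyte TRAP and a lowest value of 104, a median of 155 and a highest of 288 CPM in endfeet TRAP. Here library 6 was the highest, and endfeet libraries 1 to 3, with at most 127 CPM, all lay below libraries 4 to 6, with at least 182 CPM. The log2 fold change of Slc22a6 was 3.84 (SE 0.478, adjusted p = 5.08e-05), and it was 4.14 within the shared number series.

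Slco1a4 and Slco2b1 encode OATP1A4 and OATP2B1, carriers of steroid conjugates, thyroid hormones, bile acids and drugs such as statins. Slco1a4 (ENSMUST00000165990, chr6:141805440-141856199, minus strand) had 0.432, 1.48 and 0.834 CPM in whole astrocyte TRAP, from 16, 56 and 38 counts. In endfeet TRAP its lowest value was 479 CPM, its median 1036 and its highest 1214, and libraries 1 to 3 all lay below libraries 4 to 6. The lowest endfeet library exceeded the highest whole astrocyte library 323-fold, and the log2 fold change of 9.99 (SE 0.617, adjusted p = 2.04e-07) was the largest of the 9. Slco2b1 (ENSMUST00000032985, chr7:99657804-99711340, minus strand) had 3.76, 3.44 and 4.56 CPM in whole astrocyte TRAP and a lowest value of 88.5, a median of 110 and a highest of 184 CPM in endfeet TRAP. Its groups were wide apart, and its endfeet libraries had a coefficient of variation (CV) of 29.0%. Slco2b1 had a log2 fold change of 4.98 (SE of 0.418, adjusted p = 2.06e-06). Exons of Slco2b1 share 471 bases with Gm15635 and 78 with Gm34280 on the opposite strand, and whether counting used the strand is not stated in the sources used here, so reads there cannot be told apart. Of the windows of 50 bases of Slco1a4, the length of a read, 2.73% are also found in relatives of its family or in pseudogenes, among them Slco1a1, Slco1a5 and Slco1a6.

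Abcb1a and Abcb1b, a pair of genes in rodents, encode P-glycoprotein, the ATP-driven pump that keeps many lipophilic drugs out of the brain. Both lie on the plus strand of chromosome 5, Abcb1a (ENSMUST00000047753) at chr5:8660077-8748575 and Abcb1b (ENSMUST00000009058) at chr5:8798147-8866315, 49571 bases apart with no annotated gene between them. Their coding sequences of 3831 bases each were 88.2% identical over 3819 aligned bases, so a part of the reads of either gene fits both. Of the windows of 50 bases of Abcb1a and Abcb1b, 768 are the same in both transcripts, and 1656, or 33.5% of those of Abcb1a and 38.9% of those of Abcb1b, differ by at most 2 bases, the number of mismatches the alignment allowed in its seed. The median window of Abcb1a differed from Abcb1b by 8 bases, and that of Abcb1b from Abcb1a by 6. The 3 stretches that follow are from the more alike part of this range, since removal of reads that aligned more than once leaves the genes to be told apart by the diverged stretches alone. They come from the GENCODE M21 transcripts, are written 5′ to 3′, and positions count from 1 at the start of each transcript. The window at bases 480 to 529 of Abcb1a and 447 to 496 of Abcb1b is the same in both:
Abcb1a and Abcb1b: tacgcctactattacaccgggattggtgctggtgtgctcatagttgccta
The window that starts at the start codon, at bases 153 to 202 of Abcb1a and 111 to 160 of Abcb1b, has 4 differences, which are in capitals:
Abcb1a: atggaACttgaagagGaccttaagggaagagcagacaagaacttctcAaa
Abcb1b: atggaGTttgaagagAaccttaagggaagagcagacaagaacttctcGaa
The longest shared run has 338 bases and spans the ABC signature, the motif that contacts ATP where the nucleotide-binding domains of these pumps meet. Its codons are in capitals in a stretch of 120 bases, at 1679 to 1798 of Abcb1a and 1646 to 1765 of Abcb1b:
Abcb1a and Abcb1b: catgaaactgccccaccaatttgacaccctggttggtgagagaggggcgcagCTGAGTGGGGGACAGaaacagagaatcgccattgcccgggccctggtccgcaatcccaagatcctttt

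Abcb1a had 0.351, 0.291 and 0.263 CPM in whole astrocyte TRAP, from 13, 11 and 12 counts. In endfeet TRAP its lowest value was 110 CPM, its median 285 and its highest 317. Endfeet library 1 was the lowest and stood apart from the other 5 libraries, which lay between 282 and 317 CPM. The log2 fold change of Abcb1a was 9.74 (SE 0.533, adjusted p = 1.07e-07), and it was 9.88 without endfeet library 1. Abcb1b had 0.405, 0.900 and 0.988 CPM in whole astrocyte TRAP and a lowest value of 7.03, a median of 10.95 and a highest of 18.3 CPM in endfeet TRAP. The groups did not overlap, although the counts behind the endfeet values were only 26 to 159. The log2 fold change of Abcb1b was 3.90 (SE 0.833, adjusted p = 0.00286), and the highest adjusted p when any of the 9 libraries was left out was 0.0286. Exons of Abcb1a share 242 bases with Gm42686 and those of Abcb1b 104 bases with Gm5106 on the opposite strand, and the reads from there were not counted apart.

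Abcc1 and Abcc4 encode MRP1 and MRP4, pumps of glutathione and glucuronide conjugates and, for MRP4, of cyclic nucleotides and prostaglandins. Abcc4 (ENSMUST00000036554, chr14:118482692-118706219, minus strand) had 7.70, 6.88 and 6.85 CPM in whole astrocyte TRAP, and a lowest value of 165, a median of 209 and a highest of 252 CPM in endfeet TRAP. It was the most even of the 9 over the endfeet libraries (CV 17.7%), although libraries 1 to 3 all lay above libraries 4 to 6. For Abcc4 the log2 fold change was 4.85 (SE 0.330, adjusted p = 3.72e-07). Abcc1 (ENSMUST00000100167, chr16:14361558-14475737, plus strand) had 3.14, 4.87 and 3.23 CPM in whole astrocyte TRAP. Its endfeet values were 118, 24.9, 32.7, 42.2, 49.7 and 5.48 CPM in libraries 1 to 6, the last from 12 counts. It was the least even of the 9, with a CV of 85.2%, and its lowest endfeet library exceeded the highest whole astrocyte library only 1.13-fold. The log2 fold change of Abcc1 was 3.61 (SE 0.828, adjusted p = 0.00456). Without endfeet library 1 it was 3.07 (adjusted p = 0.00418), and within the shared number series 2.99 (adjusted p = 0.0221).

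The reads of Abcc1 were also spread unequally along the gene. The transcript ENSMUST00000130671 lacks 1862 of the 6792 bases of the counted transcript, of which 1835 lie past its end, at chr16:14473903-14475737. The excess of the total count of ENSMUST00000100167 over that of the other transcript was taken as a share of the former. Reads on bases that only the other transcript holds, if any, were not counted apart. This share was 26.7%, 38.6% and 34.7% in whole astrocyte libraries 1, 2 and 3, and 68.8%, 47.5% and 39.6% in endfeet libraries 1, 2 and 3. It was 10.7% and 5.64% in endfeet libraries 4 and 5, and 0 of 12 counts in library 6. The share thus parted the endfeet libraries of both number series without overlap, with the whole astrocyte libraries, which carry numbers of the same series as endfeet libraries 4 to 6, in between. This comparison was chosen after its values were seen and was not tested. The cause of the unequal coverage was not tested either.

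Abcg2 encodes the breast cancer resistance protein, a pump of sulphated steroids, urate and many cytostatic drugs. Abcg2 (chr6:58584523-58695676, plus strand) had 1.32, 2.01 and 1.76 CPM in whole astrocyte TRAP, and a lowest value of 57.4, a median of 135 and a highest of 203 CPM in endfeet TRAP. Endfeet library 1 was the lowest, as for Slc22a6, Abcb1a and Slco1a4, and library 6 the highest, as for Slc22a6 and Abcb1a. For Abcg2 the log2 fold change was 6.30 (SE 0.522, adjusted p = 1.84e-06). The transcript with its highest count, ENSMUST00000143752, has 2556 bases and is annotated as a target of nonsense-mediated decay, which bears on the levels per length below.

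Levels of different genes were compared as CPM per kilobase of the representing transcript. In whole astrocyte TRAP the order from high to low was Slc22a8, Slc22a6, Abcc4, Slco2b1, Abcg2, Abcc1, Slco1a4, Abcb1b and Abcb1a, with 5.86 ± 1.46 (SD, n = 3) CPM per kilobase at its top and 0.0604 ± 0.00901 at its end. With 3 libraries the exact sign-flip permutation test of neighbours cannot pass 0.05, and neighbours in this order were not tested. In endfeet TRAP the order was Slco1a4, Slc22a8, Abcb1a, Abcg2, Slc22a6, Abcc4, Slco2b1, Abcc1 and Abcb1b, from 246 ± 77.5 (SD, n = 6) CPM per kilobase for Slco1a4 to 2.68 ± 0.900 for Abcb1b. Of the 8 neighbouring pairs, Slc22a8 lay above Abcb1a, and Slco2b1 above Abcc1, in 6 of 6 libraries, with mean log2 differences of 1.69 ± 0.937 and 2.53 ± 1.67 (SD, n = 6), for which the two-sided exact sign-flip permutation test gave 0.0312, its smallest possible p, and 0.125 after adjustment over the 8 pairs. These differences exceeded their SD but did not pass after adjustment. More pairs at the floor would have given a lower adjusted p. The other 6 pairs had adjusted p from 0.35 to 0.969 and did not keep 1 order in all 6 libraries. Among all 22092 genes, Slco1a4 held rank 13636 by mean CPM per kilobase in whole astrocyte TRAP and rank 104 in endfeet TRAP. Abcb1a moved from rank 15147 to 955, and Slc22a8, the most abundant of the 9 in whole astrocyte TRAP, from 7354 to 161.

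Shares were taken of the CPM per kilobase summed over the 9 in each library. In whole astrocyte TRAP Slc22a8 made 45.9% ± 4.87 and Slc22a6 23.5% ± 5.19 (SD, n = 3) of this sum. In endfeet TRAP Slc22a8 made 27.2% ± 10.03 and Slc22a6 6.74% ± 2.27 (SD, n = 6). Slco1a4 held 1.82% ± 0.885 in whole astrocyte TRAP against 37.7% ± 7.77 in endfeet TRAP, and Abcb1a 0.499% ± 0.189 and 8.15% ± 2.08. For each of these 4 genes other than Slc22a8 the shares in both groups did not overlap, and for Slc22a8 the highest endfeet share of 41.2% overlapped the lowest whole astrocyte share of 40.9%. Shares of 1 total are not independent of each other, and they were not tested.

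**Figure D2:**
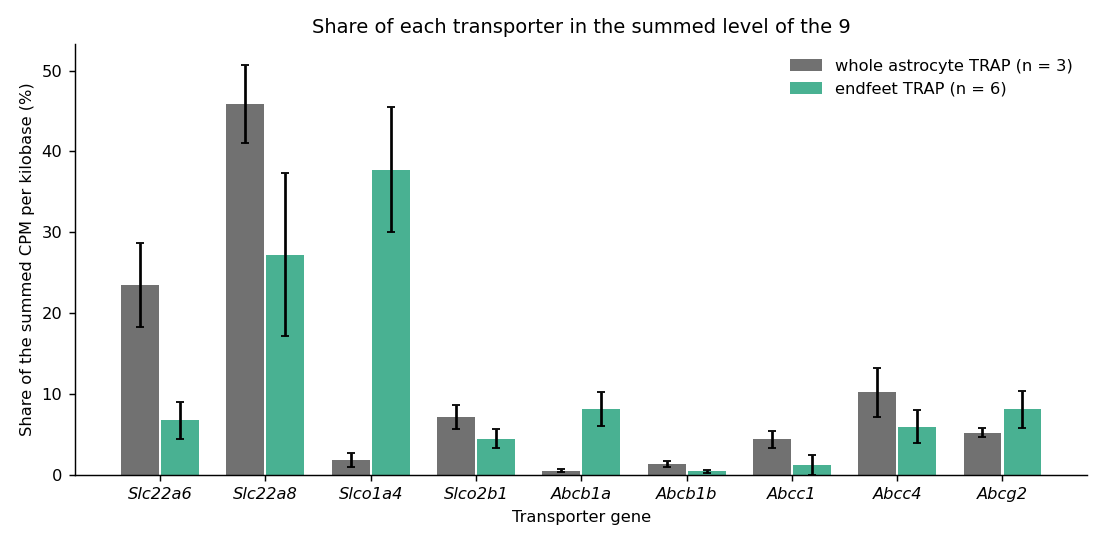
Share of each transporter in the CPM per kilobase summed over the 9, in percent, with bars at the mean and lines for the SD of 3 whole astrocyte TRAP and 6 endfeet TRAP libraries. Slc22a8 and Slc22a6 make most of the sum in whole astrocyte TRAP, and Slco1a4 and Slc22a8 in endfeet TRAP.

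Whether 2 related transporters differed in their response was asked from the log2 ratio of their counts within each library, which does not depend on the scaling between libraries. Of the 4 pairs compared, 2 passed (two-sided exact permutation test over 84 splits, Benjamini-Hochberg over the 4 pairs). The ratio of Abcb1a to Abcb1b was -0.20, -1.58 and -1.86 in whole astrocyte libraries 1, 2 and 3, and in endfeet TRAP it had a lowest value of 3.10 and a highest of 5.33. Abcb1b thus had the higher count in all 3 whole astrocyte libraries and Abcb1a in all 6 endfeet libraries. The difference of the means was 5.70 (exact permutation p = 0.0119, the smallest this design allows, adjusted p = 0.0238). Reads from stretches that are identical in both genes do not enter this ratio, since reads with more than 1 alignment were removed, and how far sequencing errors or mismatches moved reads from 1 gene to the other was not tested.

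The ratio of Slco1a4 to Slco2b1 was -3.08, -1.21 and -2.44 in whole astrocyte TRAP and lay between 2.23 and 3.57 in endfeet TRAP. Again the order of the genes was turned, in 6 of 6 endfeet libraries, with a difference of 5.14 (exact permutation p = 0.0119, adjusted p = 0.0238). The ratio of Slc22a6 to Slc22a8 had a mean of -0.77 ± 0.429 (SD, n = 3) in whole astrocyte TRAP and -1.77 ± 1.01 (SD, n = 6) in endfeet TRAP. The groups overlapped, since library 6 had a ratio of 0.01, and the difference of -0.997 did not pass (exact permutation p = 0.155, adjusted p = 0.155). Without endfeet library 6 it was -1.35 (exact permutation test, adjusted p = 0.0476), and within the shared number series it was -0.28. Library 6 was the only one that overlapped, so its removal favours the difference. Without any other 1 library the pair did not pass (exact permutation test, adjusted p from 0.161 to 0.357). The 3 libraries of the other series had ratios from -2.72 to -2.27. The ratio of Abcc1 to Abcc4 was -0.96 ± 0.412 (SD, n = 3) and -2.65 ± 1.32 (SD, n = 6), a difference of -1.70 that did not pass (exact permutation p = 0.0714, adjusted p = 0.0952). Without endfeet library 1, the only one within the range of the whole astrocyte libraries, it was -2.01 (exact permutation test, adjusted p = 0.0476). Here too the removed library was the one that went against the difference. Without any other 1 library the pair did not pass (exact permutation test, adjusted p from 0.0714 to 0.238).

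**Figure D3:**
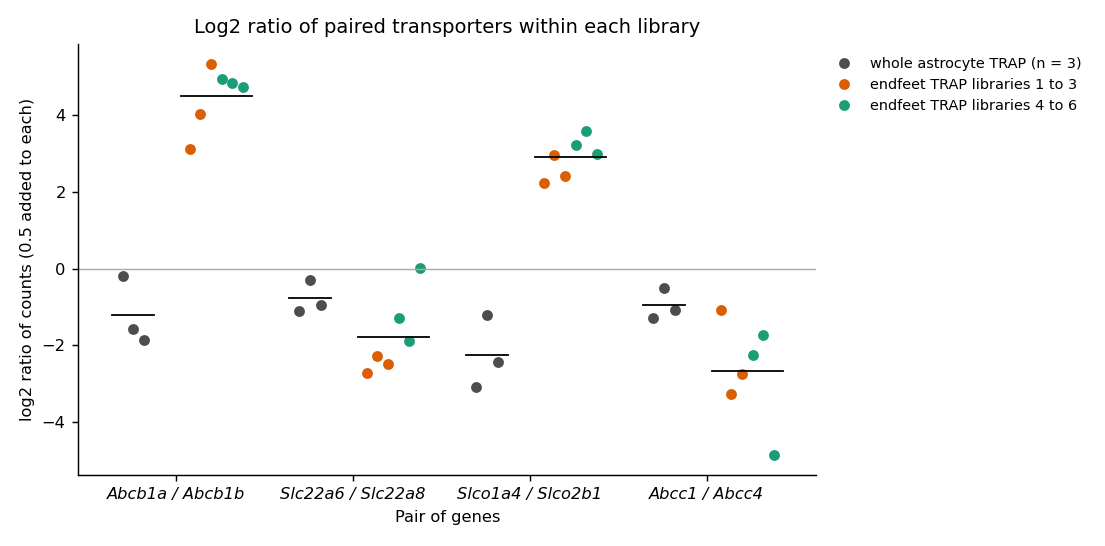
Log2 ratio of the counts of 4 pairs of transporters, with 0.5 added to each count, 1 point per library and lines at the group means. The ratios of Abcb1a to Abcb1b and of Slco1a4 to Slco2b1 lie below 0 in the 3 whole astrocyte TRAP libraries and above 0 in the 6 endfeet TRAP libraries, while the groups overlap for the other pairs.

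The transporters differed in how they followed the markers of other cells over the 6 endfeet libraries. A score was made for each marker list in each library as the mean over its genes of log2(CPM + 1). The endothelial score was 1.32 ± 0.00370 (SD, n = 3) in whole astrocyte TRAP against 7.43 ± 0.355 (SD, n = 6) in endfeet TRAP, the fibroblast score 2.87 ± 0.283 and 6.72 ± 0.540, and the choroid plexus score 3.40 ± 1.21 and 7.53 ± 1.13, and for each of these lists the 2-sided exact permutation test gave 0.0119, the smallest p it can give (adjusted p = 0.0134). The summed CPM of the 12 endothelial markers ranged from 61.0 to 75.4 in whole astrocyte TRAP and from 3111 to 4660 in endfeet TRAP, that of the 10 fibroblast markers from 90.7 to 132 and from 1197 to 2357, and that of the 10 choroid plexus markers from 75.6 to 1556 and from 6917 to 91738. In whole astrocyte TRAP the endothelial marker Ly6c1 was at 0 in all 3 libraries. Mural, ependymal and microglial scores were higher in endfeet TRAP by 5.69, 2.65 and 2.41, and the scores of astrocytes, neurons and oligodendrocytes lower, with differences of -1.38, -1.28 and -1.03 (exact permutation tests, adjusted p = 0.0134, and 0.0238 for astrocytes).

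When the fibroblast score was subtracted from the log2 CPM of Slc22a8 in each endfeet library, the SD over the 6 libraries fell from 0.565 to 0.123, the lowest value for any of the 9 transporters with any of the 9 lists. The fibroblast score was singled out for Slc22a8 by these values themselves. The SD of Slc22a8 was also lower with the ependymal (0.410), microglial (0.513), mural (0.541) and astrocyte (0.558) scores. No such fall was seen for its neighbour Slc22a6, whose SD was 0.610 alone and 0.986 after subtraction of the fibroblast score. Its lowest value was 0.532, with the oligodendrocyte score. For Abcb1a the SD was 0.580 alone and 0.357 after subtraction of the endothelial score, its lowest value, and for Abcg2 it was 0.626 and 0.437, also its lowest. Slco1a4 had 0.533 alone, 0.384 with the endothelial score and 0.360 with the oligodendrocyte score, and Slco2b1 had 0.396 alone, 0.337 with the endothelial and 0.267 with the neuronal score. Abcc4 and Abcb1b had their lowest SD, 0.260 and 0.468, with no score subtracted. The endothelial, mural and fibroblast scores themselves had SDs of 0.355, 0.332 and 0.540, above that of Abcc4. A higher SD of Abcc4 after their subtraction thus says little about whether it followed them. Abcc1 kept an SD of at least 1.09 with every list. The choroid plexus score gave higher SDs than the gene alone for all 9. That score itself had an SD of 1.13 over the 6 libraries, above that of every gene but Abcc1. A higher SD after its subtraction was thus largely fixed in advance and says little about whether a gene followed it. These are descriptions over 6 libraries, all members and markers of a library share its depth and preparation, and the part of other cells in the higher levels of the 9 transporters was not tested.

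**Figure D4:**
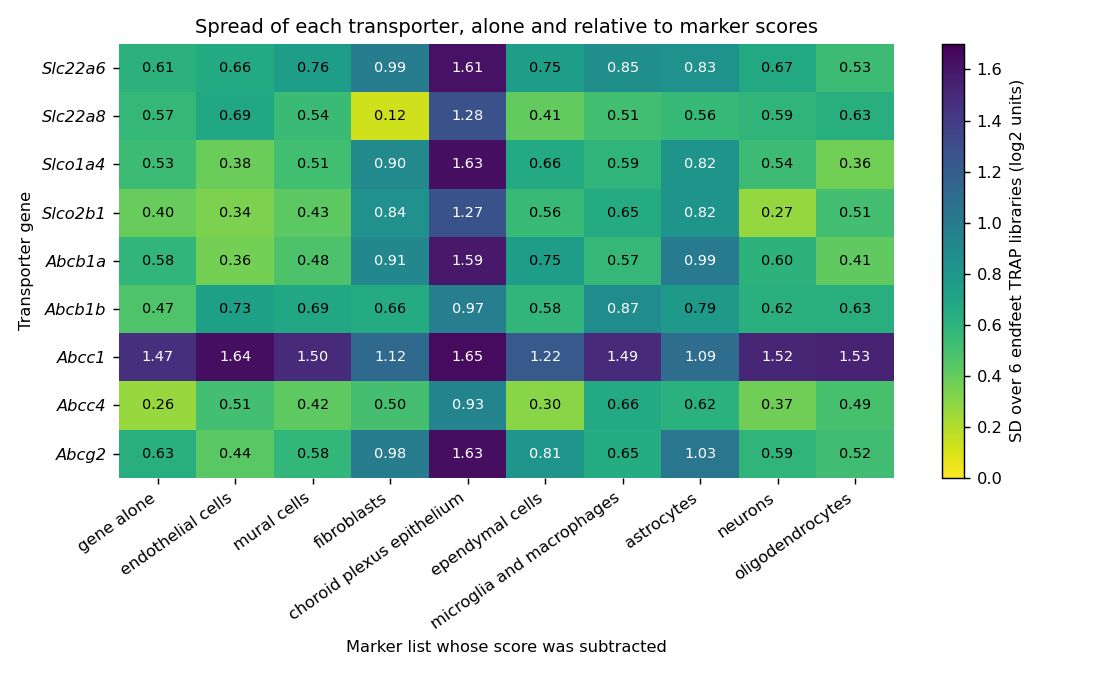
SD over the 6 endfeet TRAP libraries of the log2 CPM of each transporter, alone and after subtraction of the score of each of 9 marker lists, in log2 units. The lowest value of the grid is that of Slc22a8 with fibroblasts (0.12), and the row of Abcc1 lies above 1 throughout.

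Endfeet library 1 had the highest choroid plexus score, 9.18, and library 5 the lowest, 5.95, while whole astrocyte libraries 1, 2 and 3 had 2.02, 4.24 and 3.95. Abcc1 was highest in endfeet library 1 (118 CPM), followed by library 5 (49.7 CPM). Library 1 had 631 counts on the transcript used and 197 on ENSMUST00000130671, against 674 and 636 in library 5. The place of library 1 thus depends on the uneven coverage described above. Slc22a8 had 684 and 875 CPM in libraries 1 and 5. Without endfeet library 1 all 9 transporters stayed higher in endfeet TRAP, with log2 fold changes from 3.07 to 10.11.

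The 3 genes whose log2(CPM + 1), centred over the 9 libraries, differed least from each transporter (smallest root mean square difference over 9 libraries) were found among the genes tested. For Slc22a8 they were Apod (0.207), Tagln (0.2502) and Lum (0.260), of which Tagln is on the mural list and Lum on the fibroblast list. For Abcb1a they were Rgs5 (0.246), which is on the mural list, Cyyr1 (0.363) and Ahnak (0.412). Slco1a4 was most like Cd93 (0.360), Cxcl12 (0.426) and Fn1 (0.427), and Slco2b1 like Car4 (0.223), Slc7a1 (0.233) and Plec (0.235). For Abcg2 they were Atp13a5 (0.201), Stra6 (0.282) and C130074G19Rik (0.349), and for Abcc4 they included Macf1 (0.200) and Mylk (0.246). Slc22a6 was nearest to Slc25a24 (0.236), Ptgfr (0.320) and Cd24a (0.342), Abcb1b to Samd9l (0.229), Atp7a (0.259) and Atp13a3 (0.262), and Abcc1 to Fbln1 (0.296), Slc5a6 (0.338) and Col6a5 (0.367). The measure is led by the difference between the groups, so that a small value says mainly that 2 genes had a like fold change.

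The same comparison was read for 66 further transporters of these families and of other drug and organic ion carriers, of which 36 were tested. Of these, 18 were higher, none was lower, and 18 did not pass, with a median log2 fold change of 2.33. Of all genes tested, 20.7% were higher and 13.9% lower. Abcc3, Abcc6, Abcg3 and Slc28a3, with at most 4 counts in any whole astrocyte library, were tested only through endfeet libraries and could only come out higher. Abcc9, Slco2a1 and Slc47a1, with at most 35 counts in any whole astrocyte library, were also tested only through endfeet libraries. Their calls thus depend in part on the filter. Slc22a3, with at most 22 counts in a library, was not tested, and without the filter it was lower (-3.69, edgeR, adjusted p = 0.0492). At an unadjusted p under 0.05 edgeR gave 1 lower gene, Abcb9, while DESeq2 called 1 and limma voom 2 lower. Of the 66, 10 had no count in any library. Of 8 tested SLC22 carriers 4 were higher, with a list median of 2.23. They were Slc22a5, the carnitine carrier (log2 fold change 3.26, adjusted p = 0.0156), Slc22a17 (1.96, adjusted p = 0.0094), Slc22a23 (1.53, adjusted p = 0.00304) and Slc22a2, an organic cation carrier whose endfeet libraries, from 0 to 60.4 CPM, overlapped the whole astrocyte libraries. Of 6 tested SLCO carriers 3 were higher, with a list median of 3.62. Slco1c1, the thyroxine carrier, had 46.1 ± 5.35 (SD, n = 3) CPM in whole astrocyte TRAP against 481 ± 120 (SD, n = 6) in endfeet TRAP. Its log2 fold change was 3.38 (SE 0.320, adjusted p = 5.21e-06). Slco2a1, a prostaglandin carrier, and Slco3a1 were higher by 5.14 and 3.86 (adjusted p = 0.000361 and 0.000616).

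Of 14 tested transporters of the families ABCB, ABCC and ABCG other than the members, 5 were higher and 9 did not pass, with a median log2 fold change of 1.36. Abcc9, the regulatory subunit of an ATP-sensitive potassium channel rather than a drug pump, had 0.526 ± 0.474 (SD, n = 3) CPM in whole astrocyte TRAP against 401 ± 206 (SD, n = 6) in endfeet TRAP. It was tested only through endfeet libraries. Abcg1, an exporter of cholesterol, was higher by 1.496 (adjusted p = 0.0485). Abcc3, Abcc6 and Abcg3, the other genes called higher, had at most 2 counts in any whole astrocyte library and 0 in at least 1 endfeet library, so no fold is given. The mitochondrial transporters Abcb8 and Abcb10 had log2 fold changes of 0.70 and 0.10 and did not pass (adjusted p = 0.489 and 0.882). Of 8 tested carriers of drugs, nucleosides and organic ions 6 were higher, with a median of 3.38. Among them were the dicarboxylate carrier Slc13a3 (28.5 ± 2.83 CPM in whole astrocyte TRAP, SD, n = 3, against 292 ± 194 in endfeet TRAP, SD, n = 6), the nucleoside carrier Slc29a1 (log2 fold change 3.41, adjusted p = 0.00192) and the monoamine carrier Slc29a4 (4.46, adjusted p = 0.000461). Slc28a3 was also higher, from at most 4 counts in a whole astrocyte library to between 3 and 296 in endfeet libraries. Slc29a3 (1.33, adjusted p = 0.0292) and Slc47a1, whose groups overlapped, were the remaining 2.

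**Figure D5:**
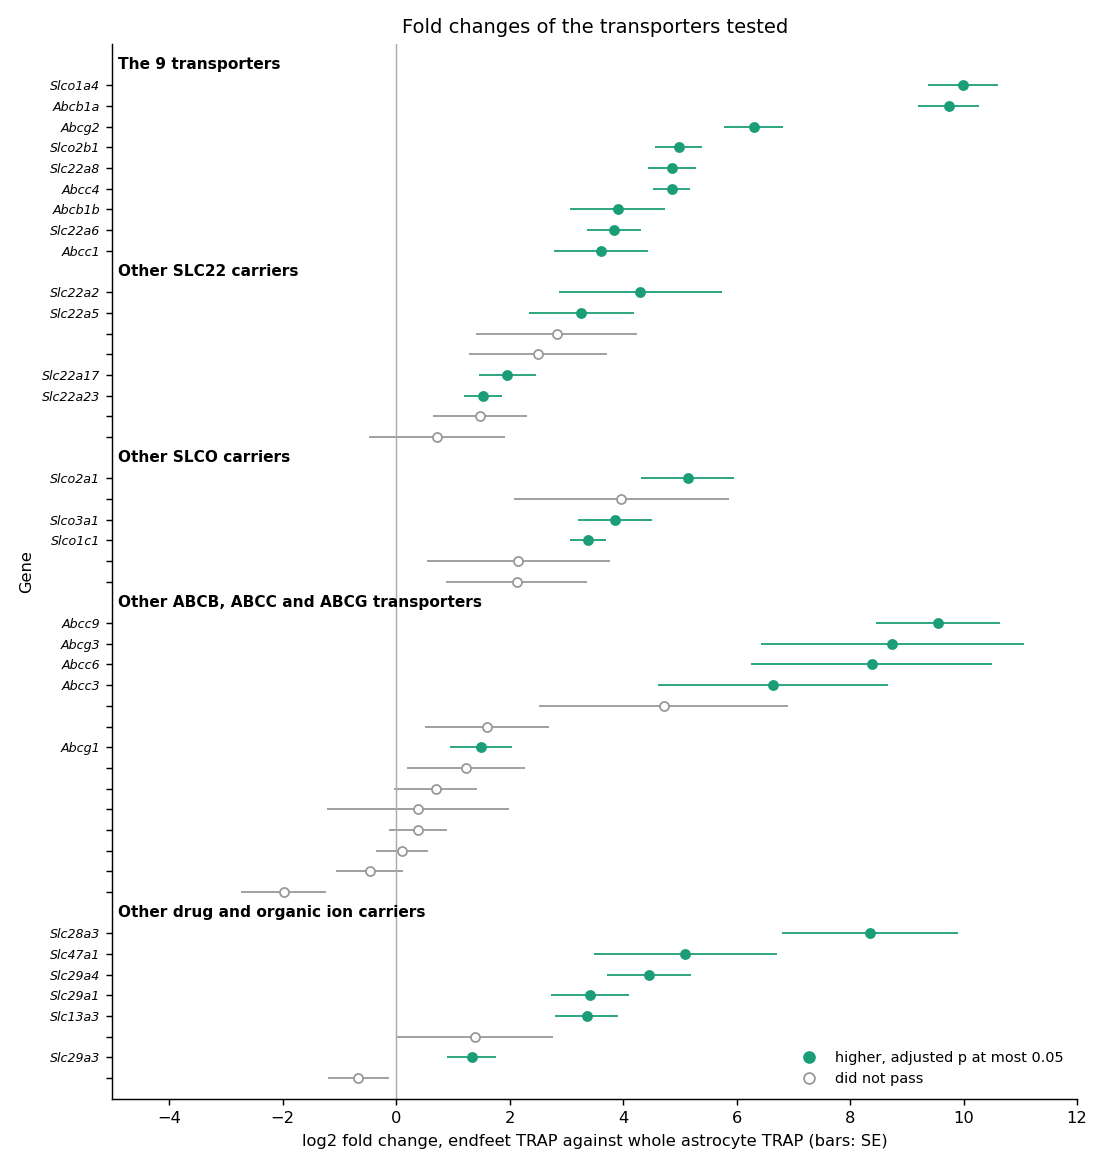
Log2 fold change of endfeet TRAP against whole astrocyte TRAP with its SE for the 9 transporters and the 36 tested genes of 4 lists of other transporters. Filled points, with the gene named, were higher at an adjusted p of at most 0.05 (edgeR), open points did not pass, and the 9 lie between 3.61 and 9.99 where the others have a median of 2.33.

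Regulators and enzymes of the handling of foreign compounds, which act together with these transporters, were read beside the 20.7% of all genes tested that were higher and the 13.9% that were lower, and nothing particular to these lists was tested. Of 11 tested genes of xenobiotic-sensing regulators 2 were higher, 2 lower and 7 did not pass, with a median log2 fold change of 0.16. Ahr, the aryl hydrocarbon receptor, and Pdzk1, a scaffold of transporters, were higher by 2.03 and 1.93 (adjusted p = 0.0252 and 0.0473). Nr1i3, the constitutive androstane receptor that induces drug transporters, had 69.6 ± 8.59 (SD, n = 3) CPM in whole astrocyte TRAP against 23.2 ± 8.19 (SD, n = 6) in endfeet TRAP, and its log2 fold change was -1.59 (SE 0.394, adjusted p = 0.00727). Nfe2l2, the factor of the antioxidant response, was also lower, with a log2 fold change of -1.02 (adjusted p = 0.00382). Nr1i2, the pregnane X receptor, had no count in any library. Of 17 tested enzymes of xenobiotic metabolism and conjugation 3 were higher, 5 lower and 9 did not pass, with a median of -1.05. Cyp1b1, Ephx1 and Por, which oxidise or hydrolyse foreign compounds or supply the electrons for it, were higher by 3.96, 2.92 and 2.11. The glutathione transferases Gstm5, Gstm1 and Gsta4 were lower, with log2 fold changes of -3.92, -3.08 and -1.06, and so were the subunits of the enzyme that limits glutathione synthesis, Gclm (-1.71) and Gclc (-0.92). Gstm5, with 1474 ± 117 (SD, n = 3) CPM in whole astrocyte TRAP against 97.0 ± 40.05 (SD, n = 6) in endfeet TRAP, had the largest fall on this list.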

How the data were processed

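RNA that came down with GFP-tagged ribosomes was sequenced in 3 whole astrocyte TRAP and 6 endfeet TRAP libraries. Per the labels and the study's methods, the authors amplified the RNA with a NuGEN Ovation kit, sequenced reads of 50 bp, aligned them to mm10 with Bowtie (at most 2 mismatches in the seed), removed reads with more than 1 alignment and counted the rest on Ensembl 75 transcripts with HTSeq-count (HTSeq 0.5.3). The deposited values are raw counts per transcript, neither normalized nor pooled. Of 75466 transcripts, 73164 were matched to GENCODE M21 of the same build, giving 22092 genes, and 2302 were left out. A read was counted on every transcript it overlapped, so each gene was represented by 1 transcript.

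All 9 libraries were compared with edgeR 4.0.16 (TMM, filterByExpr, quasi-likelihood test) in R 4.3.3, with Benjamini-Hochberg adjustment over 14427 genes and a threshold of 0.05. The CPM given are scaled by TMM, SDs are over libraries, and SEs come from dividing the log2 fold change by the root of F. Log2 ratios had 0.5 added to each count, marker scores 1 CPM. DESeq2 1.42.0, limma 3.58.1 (voom), other filters, the library series, a replicate block, counts summed over transcripts and leaving out each library were alternatives. The tests were tested on simulated data, for the fits with the same dispersion in both groups, unlike that of these libraries. The transporters and gene lists were chosen with earlier results of these data known. Other genes named were, per list and direction, up to 4 of largest log2 change that were called, with groups apart and a mean normalized count above 50. Others called or singled out (Slc22a2, Slc22a3, Abcb8, Abcb9, Abcb10, Abcc3, Abcc6, Abcg3, Slc29a3, Slc47a1, Nr1i2, Gclc) were added after their values were seen. Of the genes the rule for the nearest genes names, 1 is not reported here. The p-values measure the spread between these libraries. Floors of 3 counts cover counting error only. Tables were joined in Python 3.11.15 (pandas 2.3.3, numpy 2.4.6).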

Additional observations from a re-analysis of the deposited data

Results flagged for a closer look

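In endfeet library 1, Abcb1a had 110 CPM (109.944), far below the other 5 endfeet libraries, which lay between 282 and 317 CPM. The gap to the nearest library was 0.830 of the whole range, above the critical value of 0.625 for 6 libraries in Dixon's test. The same test was made on 22 sets of 6 endfeet values (9 transporters, 4 log2 ratios and 9 marker scores), and chance gives about 1 such result in 20 sets. Library 1 also had the lowest endothelial score of the 6, 6.82 against 7.41 to 7.92, and the highest choroid plexus score, 9.18. Whether the low value of Abcb1a goes with either was not tested.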

How the results depend on the processing

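All 9 transporters kept their direction and stayed past the threshold under all 18 alternatives to the comparison. The log2 fold changes of Abcc1 ranged from 2.99 to 3.84 and those of Slco1a4 from 9.68 to 10.50, and the highest adjusted p was 0.0291. Replicate numbers did not pair the libraries, since same-numbered libraries deviated from their group means with correlations of -0.03, 0.01 and 0.07. With a replicate block 2501 genes were higher and 1958 lower, against 2991 and 2006, and it changed no call of the 9. Depth limits the whole astrocyte values of Abcb1a (11 to 13 counts), Slco1a4 (16 to 56) and Abcb1b (15 to 45), and the values of Abcb1b and Abcc1 in endfeet library 6 (26 and 12 counts).

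Over all genes, limma voom called 4485 lower. Leaving out 1 library gave 1874 to 3380 higher and 1171 to 2642 lower genes, and for the other transporters 11 to 20 higher and 0 to 1 lower. Of these, 11 were higher with at least 10 counts in every library, where fewer genes were tested. The number lower was 1 with DESeq2, without a filter, with the library series as a covariate and with counts summed over transcripts, and 2 in the shared series or with limma voom. Abcb9 was lower in DESeq2, limma voom and both series alternatives, and without endfeet library 1 or 6. The cause was not tested.

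Without 1 library, the difference in log2 ratio ranged from 5.38 to 6.21 for Abcb1a and Abcb1b and from 4.72 to 5.65 for Slco1a4 and Slco2b1. Without any 1 of the whole astrocyte libraries both pairs had an adjusted p of 0.0714 (exact permutation test) and did not pass. They stood at the smallest p that so few splits allow, and the other pairs did not reach it. The range was -1.35 to -0.754 for Slc22a6 and Slc22a8 and -2.01 to -1.26 for Abcc1 and Abcc4, which also passed with counts summed over transcripts (-1.66, exact permutation test, adjusted p = 0.0476). Within the shared series the exact permutation test of 3 libraries against 3 cannot pass 0.05, and the ratios were not tested there. With summed counts per length of the longest transcript, the log2 differences became 1.20 for Abcg2 above Slc22a6, -0.81 for Slc22a6 against Abcc4, -0.27 for Abcc4 against Slco2b1 and 2.86 for Abcc1 above Abcb1b, so the middle of the endfeet order depends on the transcript chosen.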
